A study of Mus musculus with 64 samples.

Results

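The genes described here are 35 genes of fatty acid oxidation and ketone body metabolism, picked by symbol from the 55487 genes of a count table of mouse liver. They comprise 6 genes of carnitine uptake and the carnitine shuttle, 2 acyl-CoA synthetases, 5 acyl-CoA dehydrogenases, 3 genes of the electron transfer flavoprotein system and 5 genes of the later mitochondrial steps. A further 4 genes serve unsaturated fatty acids, 5 act in or on peroxisomes and 5 belong to ketone body metabolism. All 35 were among the 10097 genes with enough counts to be tested. Gene expression was measured by BRB-seq, in which barcoded RNA of many samples is pooled and unique molecular identifiers (UMIs) are counted at the 3′ ends of transcripts. The livers came from male C57BL/6J mice with food available at all times, taken 4 weeks after injection of an AAV8 vector. The hairpin RNA it carried was directed at Acsf3 in the sh-Acsf3 mice and was a control sequence in the sh-Ctl mice, so every animal had received virus and there was no group without it. Each treatment was sampled at 8 zeitgeber times (ZT, hours counted from the start of the light period) spaced 3 h apart, with 4 libraries per group, 16 groups and 64 libraries in all. The labels call the knockdown specific to liver, but the hairpin sequences, the promoter that drives them and whether each library came from 1 animal are not given in the sources used here, so p-values measure only the spread between these libraries.

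As background, a long fatty acid is first joined to coenzyme A by an acyl-CoA synthetase, then handed to carnitine by CPT1A on the outer mitochondrial membrane, carried across the inner membrane by SLC25A20 and returned to coenzyme A by CPT2. Inside the mitochondrion each turn of β-oxidation removes an acetyl-CoA by dehydrogenation, hydration, a further dehydrogenation and thiolysis, and the electrons of the first step leave through the electron transfer flavoprotein. Peroxisomes shorten very long chains, and the liver turns surplus acetyl-CoA into ketone bodies that other organs burn with the enzyme OXCT1, which hepatocytes are known to lack or to hold at very low levels. ACSF3, the target of the hairpin, makes malonyl-CoA inside mitochondria, and malonyl-CoA of the cytosol is the known inhibitor of CPT1A.

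The libraries held between 0.839 and 9.35 M UMIs, with medians of 3.13 M in sh-Ctl and 2.03 M in sh-Acsf3. Acsf3 lay at 6.32 to 18.0 CPM in sh-Ctl and 0 to 7.31 CPM in sh-Acsf3, a difference of -2.26 ± 0.14 (log2, SE). CPM are UMI counts scaled to a common library total by TMM. The 8 hepatocyte markers summed to between 70394 and 138660 CPM in sh-Ctl and between 105890 and 146570 CPM in sh-Acsf3, so the defining genes of the labelled tissue were present. Stellate cell and fibroblast markers summed to 136 to 276 CPM in sh-Ctl and 283 to 596 CPM in sh-Acsf3, without overlap, and T and NK cell markers to 2.91 to 13.3 and 9.60 to 66.8 CPM. The acute-phase gene Saa1 stood out in 4 controls, namely replicate 1 of sh-Ctl ZT9 and the second replicates of sh-Ctl ZT12, ZT15 and ZT18 (2092 to 4204 CPM, elsewhere no more than 250.9), and 8 libraries (2 sh-Ctl, 6 sh-Acsf3) held pancreas enzyme RNA at 129 to 5600 CPM, elsewhere no more than 27.

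The first comparison asks whether the fatty acid oxidation and ketone body genes were expressed differently once Acsf3 was lowered, averaged over the day. Most lay near their control levels. Oxct1 and Bdh1, both enzymes of ketone body metabolism, rose, and the other 33 genes did not pass the test. These 2 of 35 genes are 5.71%, against 14.5% of all 10097 genes tested (8.26% higher and 6.21% lower, edgeR quasi-likelihood test, adjusted p under 0.05). The median difference of the 35 genes was -0.03 (log2), with 23 below 0 and 12 above, beside a median of -0.01 over all genes. The 95% interval of the difference lay within 0.32 of 0 (log2) in either direction for 31 of the 35, and reached beyond for Slc22a5, Bdh1, Oxct1 and Slc16a6. The summed level of all 35 genes ran from 4914 to 8014 CPM in sh-Ctl (median 6626) and from 5347 to 7900 CPM in sh-Acsf3 (median 6378), so the treatments overlapped over most of their range.

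**Figure D1:**
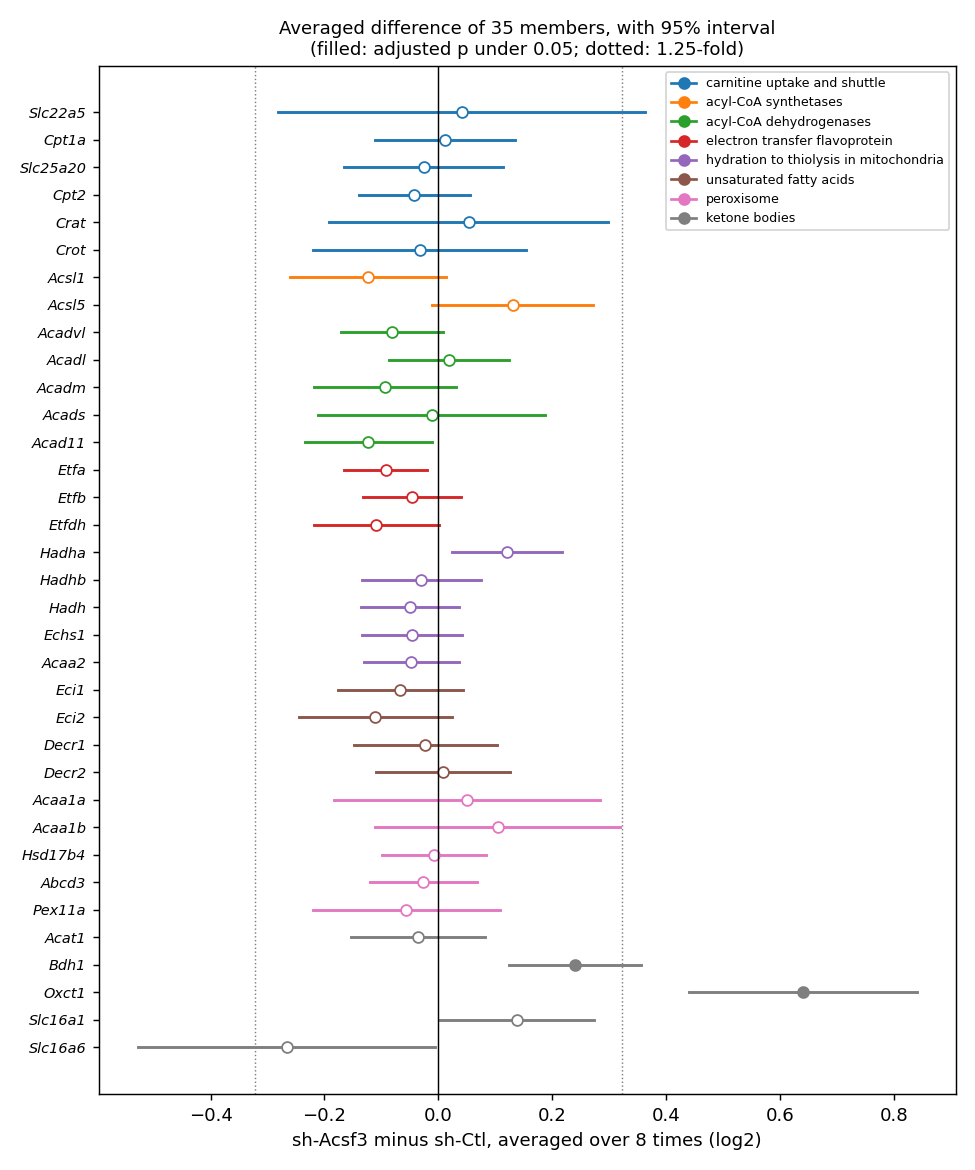
Difference between sh-Acsf3 and sh-Ctl averaged over 8 zeitgeber times for each of the 35 genes (log2, x axis), coloured by role, with bars for the 95% interval and dotted lines at 0.32 on either side of 0. The filled points, Bdh1 at 0.24 and Oxct1 at 0.64, passed the edgeR test, and the intervals of 31 genes lie between the dotted lines.

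Oxct1 (ENSMUSG00000022186, chr15:4026383-4155344, plus strand, GRCm38) encodes succinyl-CoA:3-oxoacid CoA transferase, the enzyme that lets a tissue burn ketone bodies. Its lowest, median and highest levels were 1.75, 4.65 and 8.71 CPM over the 32 sh-Ctl libraries. Over the 32 sh-Acsf3 libraries they were 3.23, 6.8 and 11 CPM. The treatments overlapped when pooled over the day, yet the sh-Acsf3 mean was the higher one at all 8 times. On average it rose from 4.61 ± 1.44 to 7.04 ± 1.71 CPM (n = 32 each, SD within times), a difference of 0.64 ± 0.10 (log2, SE, edgeR adjusted p = 1.63e-06). These levels come from 466 control and 692 knockdown UMIs and are among the lowest of the 35 genes. The exons of Oxct1 overlap those of BC037032 on the opposite strand, and where the counting did not use strand, reads of such pairs cannot be told apart. Oxct1 is a gene of many cell types outside the hepatocyte, and the treatment moved markers of such cells too. All 6 stellate and fibroblast markers passed upwards, with a median of 0.76 (log2), as did all 5 tested T and NK cell markers (2.68), both tested B cell markers (1.12) and 4 of 6 Kupffer cell and macrophage markers (0.39), while 0 of 6 sinusoidal endothelial markers passed (0.05). Of 2 tested cholangiocyte markers 1 passed upwards (median 0.36). Of the 8 hepatocyte markers 2 passed downwards (25%, against 14.5% of all genes passing either way), with a median of -0.01. Summed Kupffer cell and macrophage markers held 49.1 to 167 CPM in sh-Ctl and 51.6 to 164 CPM in sh-Acsf3, and B cell markers 3.64 to 37.2 and 11.0 to 139 CPM. The part of these cells in the Oxct1 result was not tested, and in bulk liver a change in the number of cells of a type cannot be told apart from a change in RNA per cell.

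At single times Oxct1 was the only one of the 35 genes to pass, at ZT0 and at ZT12. The share of all genes passing was 0.515% at ZT0, 0.0693% at ZT3, 0.218% at ZT6, 0.357% at ZT9, 1.4% at ZT12, 0.0297% at ZT15, 0.168% at ZT18 and 0.317% at ZT21. At ZT0 the 4 sh-Ctl libraries held 6.27, 3.07, 1.75 and 4 CPM and the 4 sh-Acsf3 libraries 9.79, 9.89, 6.98 and 7.37 CPM, and every sh-Acsf3 library was above every control. This was a difference of 1.11 ± 0.29 (log2, SE, edgeR adjusted p = 0.0471). At ZT12 the levels were 3.09, 2.45, 3.14 and 3.27 CPM in sh-Ctl and 6.4, 6.76, 7.07 and 6.41 CPM in sh-Acsf3. These groups were tight and far apart, with a difference of 1.15 ± 0.30 (log2, SE, edgeR adjusted p = 0.0258). At ZT21 the groups did not overlap either, with 4.97, 4.85, 2.85 and 3.25 CPM against 11, 6.05, 6.26 and 8.44 CPM, but 1.00 ± 0.31 (log2, SE) missed the threshold (edgeR adjusted p = 0.125). At the other 5 times the groups overlapped. Both single-time calls were fragile. The ZT0 call ended without sh-Ctl ZT0 replicate 2, 3 or 4 (edgeR adjusted p = 0.244, 0.207 and 0.0808), without sh-Acsf3 ZT0 replicate 1 or 2 (0.123 and 0.213), and narrowly, at 0.0502 to 0.0521, without any of 7 libraries of other times (sh-Ctl ZT3 replicate 3, ZT12 replicate 4 and ZT21 replicate 2, and sh-Acsf3 ZT6 replicate 2, ZT12 replicate 3, ZT15 replicate 4 and ZT18 replicate 4). The ZT12 call ended without sh-Ctl ZT12 replicate 1, 2 or 3 (edgeR adjusted p = 0.0646, 0.0803 and 0.0564) or sh-Acsf3 ZT12 replicate 1 or 3 (0.1 and 0.0789).

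Bdh1 (ENSMUSG00000046598, chr16:31422280-31458901, plus strand) encodes the mitochondrial enzyme that interconverts acetoacetate and β-hydroxybutyrate, the last step of ketone body synthesis in liver, and its exons overlap those of Gm15743 on the opposite strand. Its lowest, median and highest levels were 19.5, 36.6 and 53.5 CPM in sh-Ctl and 23.3, 42.9 and 67.6 CPM in sh-Acsf3. Its mean rose from 37.2 ± 6.28 to 43.9 ± 6.45 CPM (n = 32 each, SD within times). The difference was 0.24 ± 0.06 (log2, SE, edgeR adjusted p = 0.0019), and the sh-Acsf3 mean was higher at all 8 times. The shift was close to the SD of single libraries within times, and at each of the 8 times the groups overlapped. It was widest at ZT9, with 33, 47.3, 45.7 and 43.5 CPM in sh-Ctl and 58.6, 55.9, 67.6 and 43.5 CPM in sh-Acsf3, a difference of 0.44 ± 0.16 that did not pass (edgeR adjusted p = 0.324). The lowest of those controls, replicate 1, is one of the libraries high in Saa1. The averaged calls of Bdh1 and Oxct1 held when any 1 of the 64 libraries was left out (highest edgeR adjusted p = 0.00424 for Bdh1), and the 233 bases before the GENCODE M21 start of Bdh1 (GRCm38.p6, chr16:31422047-31422279, plus strand, positions -250 to -18 from the RefSeq start) are shown because it is the better counted of the 2 genes that rose. None of the 6 motifs searched in this report (spelled out at the promoters of Cpt1a and Slc16a1) occurs in the stretch, so it has no capitals.
Bdh1: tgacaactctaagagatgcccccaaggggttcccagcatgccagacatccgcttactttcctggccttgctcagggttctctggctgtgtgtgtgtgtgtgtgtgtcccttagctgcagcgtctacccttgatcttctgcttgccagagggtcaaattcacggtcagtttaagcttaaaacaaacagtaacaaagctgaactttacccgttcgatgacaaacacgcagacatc

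**Figure D2:**
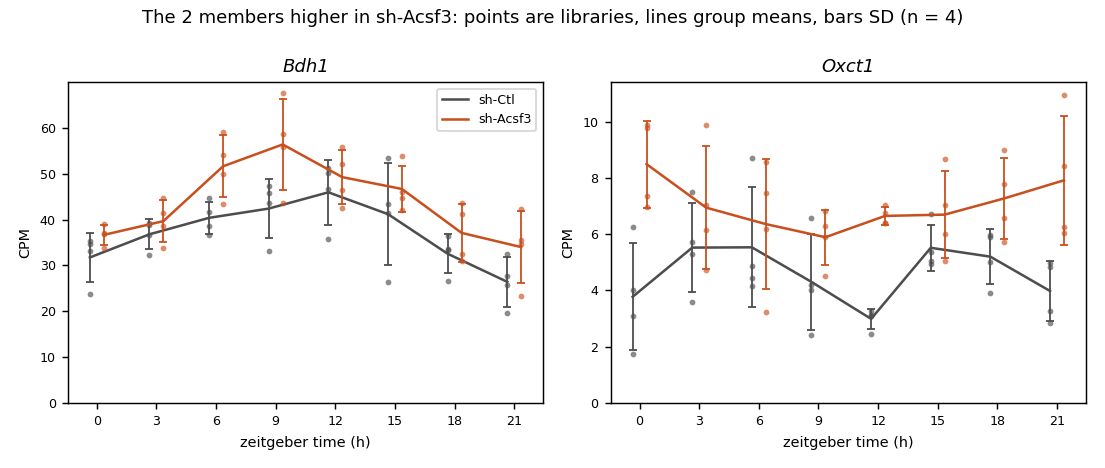
Levels of Bdh1 and Oxct1 (CPM, y axis) at 8 zeitgeber times (h, x axis) in sh-Ctl and sh-Acsf3, with points for libraries, lines for group means and bars for the SD (n = 4). The sh-Acsf3 mean lies above the sh-Ctl mean at all 8 times in both genes, and the Oxct1 groups do not overlap at ZT0, ZT12 and ZT21.

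The other 3 ketone body genes did not pass in the averaged comparison. Acat1, the mitochondrial acetoacetyl-CoA thiolase of both ketone body synthesis and use, held 305 ± 53.5 CPM in sh-Ctl and 298 ± 49.3 CPM in sh-Acsf3 (SD within times, n = 32 each), a difference of -0.04 ± 0.06. Slc16a1, which encodes the monocarboxylate transporter MCT1 that carries lactate and ketone bodies, differed by 0.14 ± 0.07 (37.3 ± 6.49 against 40.7 ± 8.01 CPM, edgeR adjusted p = 0.176). Slc16a6, which encodes the monocarboxylate transporter MCT7 of the hepatocyte, differed by -0.27 ± 0.13 with a fitted difference below 0 at 7 of 8 times (edgeR adjusted p = 0.172). It was measured at only 5.42 ± 1.88 and 4.49 ± 1.91 CPM, and its exons overlap those of Amz2 and Arsg on the opposite strand. Such overlaps were also annotated for Crat, Crot, Acsl1, Acsl5, Acadvl, Acad11, Etfdh, Hadha, Echs1, Eci2, Acaa1a and Acaa1b. On the same strand, exons overlapped those of another gene for Crot (Gm27941), Acad11 (Gm28305), Etfb (Gm45233 and Mir7051) and Slc16a6 (Gm25540). Strand cannot tell the reads of these pairs apart.

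The 6 genes of carnitine uptake and the shuttle lay close to their control levels. Cpt1a (ENSMUSG00000024900, chr19:3322334-3385733, plus strand), the gate of mitochondrial oxidation, held 78.1 to 223 CPM in sh-Ctl (median 132) and 81.1 to 273 CPM in sh-Acsf3 (median 143). The difference of 0.01 ± 0.06 had a 95% interval from -0.11 to 0.14 (log2). The other shuttle genes are Cpt2, the inner-membrane transferase, at -0.04 ± 0.05, and Slc25a20, the carnitine-acylcarnitine carrier, at -0.03 ± 0.07. Crat and Crot, which move short and medium chains between carnitine and coenzyme A, differed by 0.05 ± 0.12 and -0.03 ± 0.09. Slc22a5, the carnitine importer of the cell surface, had the lowest mean of the 35 in sh-Ctl, at 4.57 ± 2.07 and 4.52 ± 2.24 CPM in the treatments, and its difference of 0.04 had an SE of 0.16.

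The 2 acyl-CoA synthetases pointed in opposite directions without passing. Acsl1, the main long-chain synthetase of liver and the most counted of the 35 genes, held 933 ± 176 CPM in sh-Ctl and 854 ± 149 CPM in sh-Acsf3 (log2 -0.12 ± 0.07, edgeR adjusted p = 0.247). Acsl5, a second synthetase with a broad tissue range, held 152 ± 36.2 CPM in sh-Ctl and 166 ± 27.7 CPM in sh-Acsf3 (log2 0.13 ± 0.07, edgeR adjusted p = 0.236). Once replicate 2 of every group was left out, Acsl5 passed upwards. Among the dehydrogenases, which open each cycle on chains of a given length, Acadvl (very long), Acadl (long), Acadm (medium) and Acads (short) differed by -0.08, 0.02, -0.09 and -0.01 (log2, SE between 0.04 and 0.10). Acad11, a further dehydrogenase of long chains, differed by -0.12 ± 0.06 (edgeR adjusted p = 0.134). It passed downwards once the 4 libraries high in Saa1 were left out, and also once replicate 2 of every group was left out.

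The electron transfer flavoprotein genes sat slightly below their controls. Etfa, its α subunit, held 364 to 581 CPM in sh-Ctl (median 453) and 361 to 484 CPM in sh-Acsf3 (median 426). Its difference of -0.09 ± 0.04 missed the threshold (edgeR adjusted p = 0.0769), with the sh-Acsf3 mean lower at 7 of 8 times. It passed without sh-Ctl ZT9 replicate 1, sh-Ctl ZT18 replicate 2 or sh-Acsf3 ZT18 replicate 2 (edgeR adjusted p = 0.0476, 0.0421 and 0.046). The first of these and the second are libraries high in Saa1. Etfb, the β subunit, and Etfdh, the oxidoreductase that passes the electrons to ubiquinone, differed by -0.05 ± 0.04 and -0.11 ± 0.06.

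In the later mitochondrial steps the 2 genes of the trifunctional protein leaned apart. Hadha, its α subunit, held 136 ± 17.2 CPM in sh-Ctl and 148 ± 20.8 CPM in sh-Acsf3, a difference of 0.12 ± 0.05 that missed the threshold (edgeR adjusted p = 0.0819). It passed without sh-Ctl ZT18 replicate 4 or sh-Acsf3 ZT9 replicate 4 (edgeR adjusted p = 0.0406 and 0.0353). Hadhb, the β subunit, differed by -0.03 ± 0.05, and whether the 2 subunits differ from each other was not tested. These genes lie head to head on chromosome 5, with 85 bases between the gene bounds of GENCODE M21 (chr5:30155163-30155247, GRCm38). In RefSeq these bases take positions -90 to -6 from the Hadhb start, while the Hadha start lies further inside that gene. The stretch is shown on the strand of Hadhb because it is all that separates the annotated bounds of the 2 genes, and its capitals mark GGGCGG, the SP1 box.
Hadhb: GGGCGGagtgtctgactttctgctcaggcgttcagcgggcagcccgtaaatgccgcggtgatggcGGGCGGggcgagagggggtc
Hadh, the 3-hydroxyacyl-CoA dehydrogenase, Echs1, the short-chain hydratase, and Acaa2, the thiolase that closes the cycle, differed by -0.05 ± 0.04, -0.05 ± 0.04 and -0.05 ± 0.04.

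Genes for unsaturated chains and for peroxisomes also stayed near their control means. Eci1 and Eci2, isomerases that shift double bonds, differed by -0.07 ± 0.05 and -0.11 ± 0.07, and the dienoyl-CoA reductases Decr1 (mitochondrial) and Decr2 (peroxisomal) by -0.02 ± 0.06 and 0.01 ± 0.06. Hsd17b4, the peroxisomal multifunctional enzyme, Abcd3, the peroxisomal membrane transporter of acyl-CoA, and Pex11a, a factor of peroxisome division, differed by -0.01 ± 0.05, -0.03 ± 0.05 and -0.06 ± 0.08. Acaa1a and Acaa1b are near-identical genes of the peroxisomal thiolase on chromosome 9, so some of their reads may be shared. Acaa1b held 358 ± 116 and 383 ± 109 CPM (log2 0.10 ± 0.11), and Acaa1a 47.4 ± 15 and 48.9 ± 18.1 CPM (log2 0.05 ± 0.12, SD within times, n = 32 each). Their deviations from the group means were correlated across the 64 libraries (r = 0.745), and the part of shared reads in this value was not tested.

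Among 48 further genes of fatty acid handling, of which 44 were tested, 12 passed (4 higher and 8 lower, 27.3% against 14.5% of all genes) with a median difference of -0.05. Cd36, a fatty acid uptake receptor that macrophages and endothelium also carry, rose by 0.85 ± 0.10 (log2, SE), from 10.7 to 19.6 CPM, and the part of the macrophage markers given above in this value was not tested. Abcd2, a peroxisomal transporter of very long chains, rose by 1.13 ± 0.26, from 3.42 to 7.75 CPM. Nudt7, a peroxisomal hydrolase of coenzyme A, fell by 0.32 on the log2 scale (SE 0.07), from 1179 to 942 CPM, and Acsm1, a medium-chain synthetase, fell by 0.31 (SE 0.07). Of 30 regulators of oxidation 2 passed (6.67%, against 14.5% of all genes), both lower: Hlf, a clock-driven transcription factor, fell by 0.25 (SE 0.06), and Prkaa2, a catalytic subunit gene of AMP-activated kinase, by 0.21 (SE 0.05). Lpin1, a coactivator of oxidation genes, and Klf15, a fasting-related factor, differed by -0.43 ± 0.16 and -0.16 ± 0.06 (edgeR adjusted p = 0.0551 and 0.0826). Ppara, the nuclear receptor that drives most genes described here in fasting, was singled out after its value was seen and held 49.4 CPM in sh-Ctl and 49.8 CPM in sh-Acsf3.

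The second comparison asks whether the treatment acted at particular times of day. The median difference of the 35 genes was lowest at ZT0, at -0.136 with 27 genes below 0, and highest at ZT9, at 0.106 with 25 genes above 0. At the other times it lay between -0.0738 (ZT3) and -0.00464 (ZT6), and the medians of all genes lay between -0.0109 and 0.00126 throughout. Single libraries weighed on these medians. Without sh-Ctl ZT9 replicate 1, high in Saa1, the ZT9 median was 0.0266, without sh-Acsf3 ZT9 replicate 4 it was 0.205, and without sh-Ctl ZT0 replicate 4 the ZT0 median was -0.0665. The sign changed to above 0 at ZT6 without sh-Acsf3 replicate 1 (0.0682), at ZT12 without sh-Acsf3 replicate 4 (0.00542), at ZT15 without sh-Ctl replicate 3 (0.0621) and at ZT18 without sh-Ctl replicate 4 (0.041). In the test that the 8 differences are equal, 0 of 35 genes and 0 of 10097 passed by edgeR, 0 of 35 passed by limma-voom, and 0 of 35 against 3.03% of all genes had an unadjusted p under 0.05. The genes with the smallest unadjusted p in that test were Oxct1 (0.0719), Cpt2 (0.139) and Slc16a1 (0.166). Cpt2 showed its widest gap at ZT0, with 111, 119.6, 125 and 123 CPM in sh-Ctl and 87.1, 104, 76.1 and 104 CPM in sh-Acsf3, every sh-Acsf3 library being below every control. That gap of -0.37 ± 0.14 (log2, SE) was no call (edgeR adjusted p = 0.32).

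**Figure D3:**
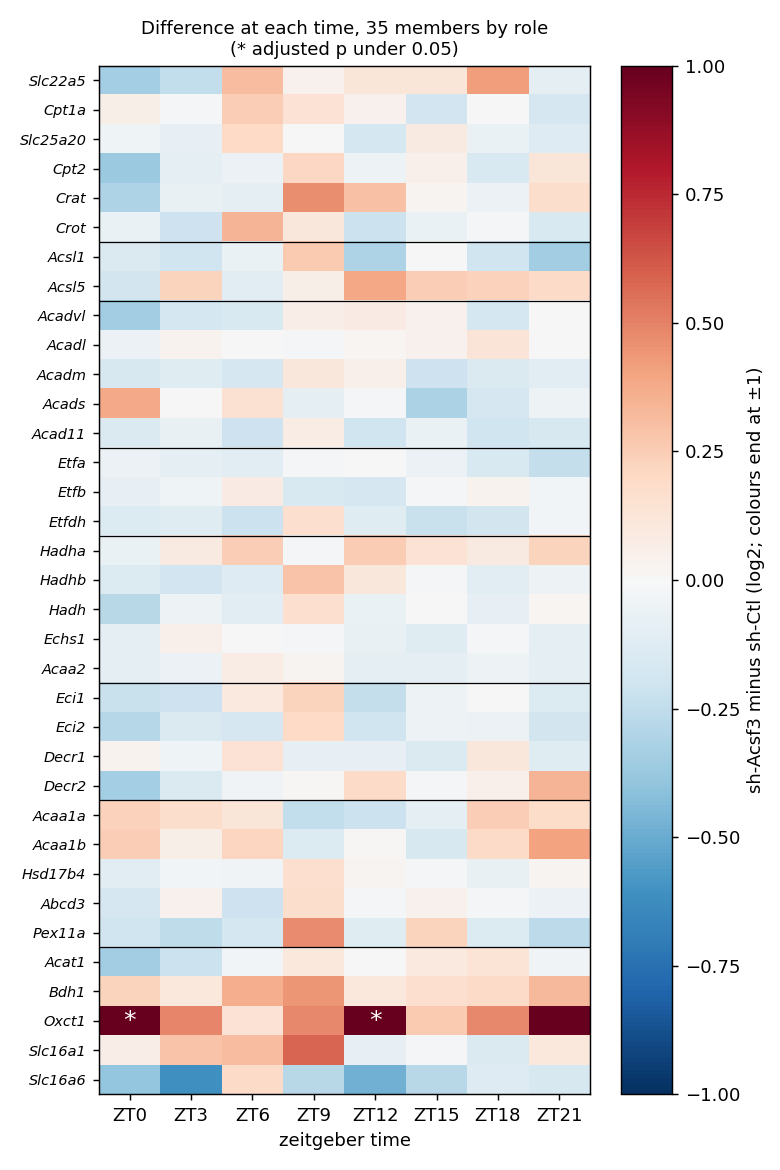
Difference between sh-Acsf3 and sh-Ctl (log2, colour scale ending at 1 in either direction) at each of 8 zeitgeber times (columns) for the 35 genes (rows, grouped by role). Asterisks mark the 2 calls, Oxct1 at ZT0 and ZT12, and the column of ZT9 holds 25 genes above 0 while that of ZT0 holds 27 below 0.

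The third comparison asks which of the genes followed a daily rhythm, and whether the knockdown altered it. The peak time is that of the fitted 24 h cosine, given with its SE, and the peak-to-trough fold is the ratio of its highest to its lowest level. In sh-Ctl 12 of the 35 genes (34.3%) passed the edgeR rhythm test, against 19.4% of all genes tested. In sh-Acsf3 12 of 35 did, against 19.6%. The genes rhythmic in both were Crot, Cpt1a, Eci2, Bdh1, Slc16a1, Pex11a, Acaa1a and Etfdh, 8 of 35 (22.9%) against 11.7% of all genes. All genes tested were not matched to the 35 in count level, and the part of count level in these shares was not tested. Acsl1, Acsl5, Acaa2 and Slc16a6 passed in sh-Ctl and not in sh-Acsf3, while Hadhb, Acadl, Decr2 and Slc22a5 passed in sh-Acsf3 and not in sh-Ctl, and no difference between treatments was shown for these 8 genes. The edgeR test of a different rhythm was passed by 0 of 35 genes and 0 of 10097, and by 0 of 35 with limma-voom. An unadjusted p under 0.05 was reached by 2 of 35, Slc16a1 and Acadvl, against 4.27% of all genes.

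**Figure D4:**
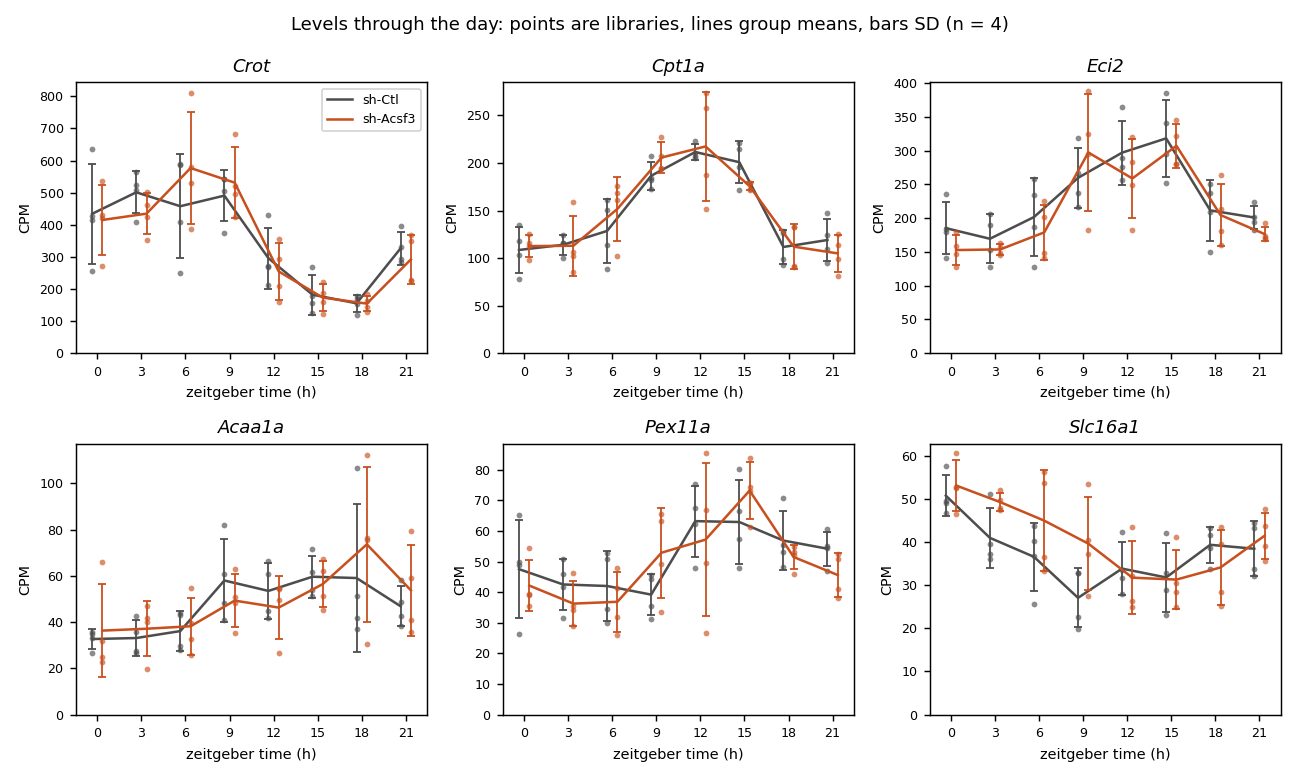
Levels (CPM, y axes) of Crot, Cpt1a, Eci2, Acaa1a, Pex11a and Slc16a1 at 8 zeitgeber times (h, x axes) in sh-Ctl and sh-Acsf3, with points for libraries, lines for group means and bars for the SD (n = 4). Crot is high from ZT0 to ZT9 and lowest at ZT18, Cpt1a is highest from ZT9 to ZT15, and both treatments trace like curves.

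Crot (ENSMUSG00000003623, chr5:8966033-8997324, minus strand) had the widest daily swing of the 35 genes in both treatments. Its protein moves medium chains shortened in peroxisomes onto carnitine. At ZT3 the sh-Ctl libraries held 509, 563, 523 and 410.2 CPM and at ZT18 119, 154, 179.5 and 169 CPM. In sh-Acsf3 the same times gave 423, 460.2, 503 and 352 CPM and 183, 145, 162 and 128 CPM. Every library at ZT3 was above every library at ZT18 in both treatments, and the treatments overlapped at each of these times. The fitted peak was at ZT4.6 ± 0.5 h with a peak-to-trough fold of 3.03 in sh-Ctl (edgeR adjusted p = 3.13e-07). In sh-Acsf3 it was at ZT4.9 ± 0.4 h with a fold of 3.5 (edgeR adjusted p = 1.17e-08).

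Cpt1a peaked later, near the end of the first 12 h of the cycle. Its sh-Ctl means were 109 ± 24.1 at ZT0, 114 ± 10.3 at ZT3, 129 ± 33.6 at ZT6, 187 ± 14.6 at ZT9, 212 ± 8.13 at ZT12, 201 ± 22 at ZT15, 112 ± 18.3 at ZT18 and 119 ± 22.4 CPM at ZT21 (SD, n = 4). The rise to ZT12 was shared by all libraries, since the 4 sh-Ctl libraries at ZT12 held 205, 207, 211 and 223 CPM and those at ZT0 78.1, 103, 118 and 135 CPM. In sh-Acsf3 the ZT12 libraries were more scattered, at 273, 257, 187 and 152 CPM, against 115, 125, 113 and 97.5 CPM at ZT0. The peak was at ZT11.9 ± 0.5 h in sh-Ctl and ZT10.8 ± 0.5 h in sh-Acsf3, with folds of 2.01 and 2.13 (edgeR adjusted p = 2.62e-08 and 4.22e-09). The bases upstream of the RefSeq start of Cpt1a (GRCm38.p6, chr19:3323051-3323284, plus strand, positions -250 to -17) are shown because Cpt1a is the textbook target of nuclear receptors among these genes. That start lies downstream of the GENCODE M21 start given above, so the stretch falls inside the bounds of the gene there. Capitals mark the reverse complement of AGGTCA, the half-site of nuclear receptors, and of GGGCGG, the SP1 box.
Cpt1a: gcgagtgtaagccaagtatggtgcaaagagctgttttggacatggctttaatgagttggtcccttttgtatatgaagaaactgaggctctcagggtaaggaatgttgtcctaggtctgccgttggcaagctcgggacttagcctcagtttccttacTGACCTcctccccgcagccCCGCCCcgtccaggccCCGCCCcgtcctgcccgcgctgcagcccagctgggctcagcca
Promoter windows of 250 bases before the start were found in the RefSeq table for 29 of the 35 genes, 32 windows in all, and were read on both strands. AGGTCA occurred in 4 of the 32 (12.5%, Acadm, Acadvl, Cpt1a and Echs1) against 14% of 32851 windows of all genes. The full element AGGTCANAGGTCA, bound by PPAR receptors and containing the half-site, occurred in 0 of 32 against 0.0335% of all windows. The run is so rare that its absence from 32 windows carries no information about these genes. GGGCGG was in 18 windows (56.2%) against 32.7% of all, CCAAT in 12 (37.5%) against 33.8%, and TTATGTAA, the D-box core, in 0 against 0.819%. A match is a run of letters and does not show that a factor binds there. The lack of a match does not show that a gene has no site, since variants and bases outside the windows were not searched.

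Eci2, which lets unsaturated chains enter the cycle, peaked at ZT13.1 ± 0.6 h in sh-Ctl and ZT12.6 ± 0.5 h in sh-Acsf3, with folds of 1.77 and 2.05 (edgeR adjusted p = 1.58e-05 and 1.41e-07). At ZT15 it held 295, 252, 385 and 340.2 CPM in sh-Ctl and 321, 346, 280.2 and 281 CPM in sh-Acsf3, and at ZT3 190.5, 153, 207 and 127 and 148, 158, 164 and 145 CPM. The later time was above the earlier one in every library of both treatments. Bdh1, higher in sh-Acsf3 on average, kept a rhythm in both, with a peak at ZT10.0 ± 0.7 h and a fold of 1.57 in sh-Ctl, and ZT9.5 ± 0.6 h and 1.64 in sh-Acsf3 (edgeR adjusted p = 4.81e-05 and 6.20e-06). Oxct1 showed no detectable rhythm in sh-Ctl or in sh-Acsf3 (edgeR adjusted p = 0.819 and 0.23).

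Of the genes grouped here under peroxisomes, Acaa1a and Pex11a had a rhythm in both treatments and peaked later still. Acaa1a peaked at ZT14.4 ± 0.9 h in sh-Ctl and ZT16.4 ± 1.1 h in sh-Acsf3, with folds of 1.94 and 1.7 (edgeR adjusted p = 0.00462 and 0.0305). At ZT18 its libraries were far apart, with 51.4, 36.9, 41.6 and 106 CPM in sh-Ctl and 30.5, 76.4, 112 and 75.4 CPM in sh-Acsf3. Its copy Acaa1b did not pass in sh-Ctl or sh-Acsf3 (edgeR adjusted p = 0.144 and 0.245). The sh-Acsf3 call of Acaa1a ended without sh-Acsf3 ZT3 replicate 1, ZT6 replicate 1 or ZT18 replicate 2, 3 or 4 (edgeR adjusted p between 0.0536 and 0.0884). Of 14 alternatives run for rhythm, Acaa1a passed in 13 in sh-Ctl but in only 6 in sh-Acsf3. Pex11a peaked at ZT16.4 ± 1.0 h in sh-Ctl and ZT14.5 ± 0.7 h in sh-Acsf3, with folds of 1.55 and 1.83.

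Slc16a1 peaked away from Cpt1a, Eci2 and Bdh1, with its high point near ZT0. At ZT0 the sh-Ctl libraries held 57.7, 46.7, 49 and 49.5 CPM and the sh-Acsf3 libraries 60.7, 52.4, 52.7 and 46.5 CPM. At ZT9 they held 22.7, 19.8, 32.9 and 32.9 and 40.4, 37.2, 53.4 and 27.4 CPM. In sh-Ctl every ZT0 library was above every ZT9 library, whereas in sh-Acsf3 replicate 3 at ZT9 was above 3 of the 4 at ZT0. The fitted peak was at ZT23.3 ± 0.9 h in sh-Ctl and ZT2.2 ± 0.7 h in sh-Acsf3, 2.8 ± 1.1 h later, with folds of 1.51 and 1.64. The test of a different rhythm gave an unadjusted p of 0.0411 and an edgeR adjusted p of 0.999. The 250 bases before the Slc16a1 start (GRCm38.p6, chr3:104638414-104638663, plus strand, RefSeq) are shown because this was the single window of the 32 (3.12%, against 6.02% of all windows) that held CACGTG, the E-box to which clock factors can bind. Capitals mark the E-box and GGGCGG.
Slc16a1: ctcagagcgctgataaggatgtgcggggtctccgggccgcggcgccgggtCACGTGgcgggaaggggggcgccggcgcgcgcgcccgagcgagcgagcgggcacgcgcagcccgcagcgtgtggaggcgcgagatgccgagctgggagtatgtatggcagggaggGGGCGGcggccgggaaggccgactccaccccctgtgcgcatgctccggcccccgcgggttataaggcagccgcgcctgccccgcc

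The remaining rhythmic genes had folds between 1.27 and 2.05. Etfdh peaked at ZT7.9 in sh-Ctl and ZT7.8 in sh-Acsf3 with folds of 1.3 and 1.39. Its sh-Ctl call (edgeR adjusted p = 0.0322) ended without sh-Ctl ZT6 replicate 2, 3 or 4, ZT9 replicate 3, ZT18 replicate 1, 3 or 4, or ZT21 replicate 3 or 4 (at most 0.0819). In sh-Ctl Acaa2, the thiolase, peaked at ZT19.2 with a fold of 1.27 (edgeR adjusted p = 0.00261), rising from 622 ± 124 CPM at ZT6 to 799 ± 75 CPM at ZT21 (SD, n = 4). Acsl1 peaked at ZT20.4 with a fold of 1.44, Acsl5 at ZT3.0 with 1.43 and Slc16a6 at ZT21.3 with 2. The Acsl1 call ended without replicate 4 (edgeR adjusted p = 0.126), with an added 12 h term (0.0571) and with free time means (0.217). That of Acsl5 ended without replicate 1 or 3 (edgeR adjusted p = 0.264 and 0.086), with library size only (0.0548), no filter (0.0511), an added 12 h term (0.063) and free time means (0.102). Of 14 alternatives run for rhythm, Etfdh passed in 8 in sh-Ctl and 12 in sh-Acsf3, Acaa2 in 12 and Slc16a6 in 7 in sh-Ctl, and Acadl in 8 and Slc22a5 in 6 in sh-Acsf3. The minimum mean of 5 CPM left Slc16a6 and Slc22a5 untested. The Slc16a6 call (edgeR adjusted p = 0.0268) ended without sh-Ctl ZT0 replicate 1, ZT21 replicate 1 or ZT9 replicate 3 (0.0568, 0.0566 and 0.0528). In sh-Acsf3 Hadhb peaked at ZT11.9 with a fold of 1.43, Acadl at ZT15.1 with 1.29, Decr2 at ZT15.3 with 1.56 and Slc22a5 at ZT12.7 with 2.05. The Acadl call ended without sh-Acsf3 ZT3 replicate 2 (edgeR adjusted p = 0.0689), and that of Slc22a5 without sh-Acsf3 ZT0 replicate 1 or 3, ZT3 replicate 1, ZT9 replicate 3, ZT12 replicate 2 or ZT15 replicate 1 or 2 (between 0.0542 and 0.1). For Hadhb the sh-Acsf3 libraries held 99.3, 119, 112 and 82.1 CPM at ZT9 and 71.9, 77.3, 58.5 and 71.5 CPM at ZT0, without overlap, against 74.8, 80.8, 107 and 79.3 and 72.7, 73.5, 76.9 and 82.2 CPM in sh-Ctl, with overlap. The test of a different rhythm gave Hadhb an unadjusted p of 0.123.

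Acadvl and Acat1, rhythmic in neither treatment, had the largest shifts of the fitted peak among the 5 genes with the smallest p for a different rhythm. At ZT0 Acadvl held 181, 193, 159.7 and 199 CPM in sh-Ctl and 175, 148, 115 and 142 CPM in sh-Acsf3, 3 of the 4 knockdown libraries being below all controls. Its fitted peak moved by -7.0 ± 2.4 h (unadjusted p = 0.0495, edgeR adjusted p = 0.999). For Acat1 it moved by 7.4 ± 2.8 h (unadjusted p = 0.0901), with ZT0 levels of 307, 427, 299 and 348 CPM in sh-Ctl and 266, 336, 165 and 322 CPM in sh-Acsf3. A peak time has little meaning where the swing itself did not pass, and the folds of these 2 genes were at most 1.18.

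**Figure D5:**
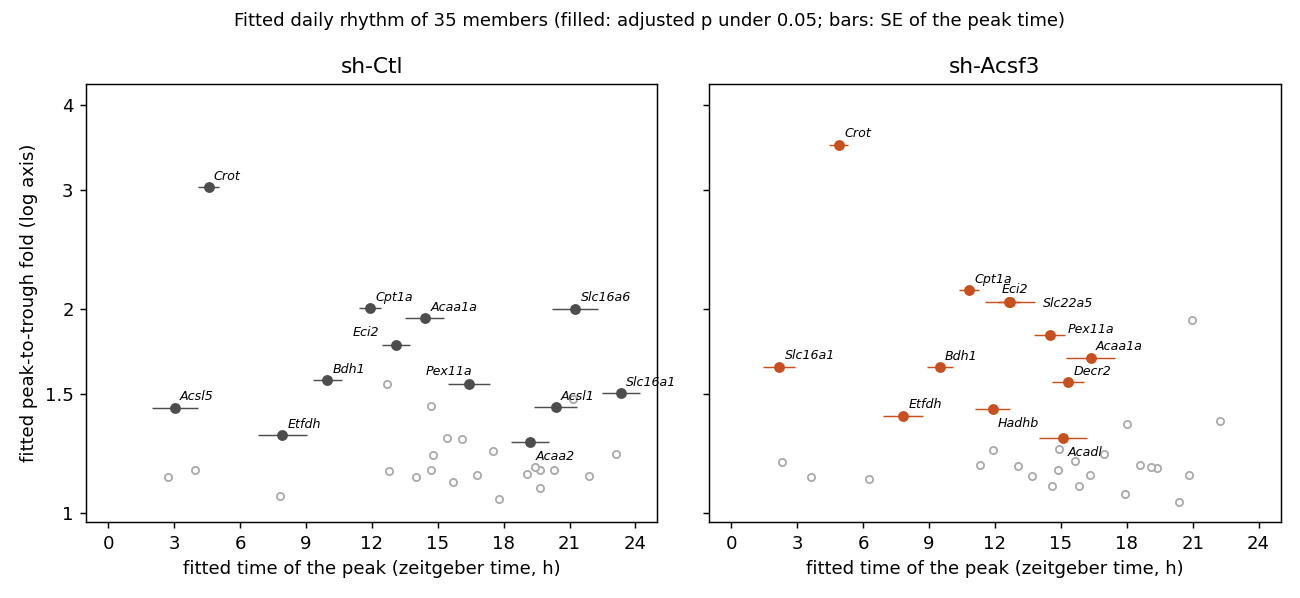
Fitted time of the peak (zeitgeber time in h, x axis) against the fitted peak-to-trough fold (log y axis) for the 35 genes in sh-Ctl and sh-Acsf3, with filled points for the 12 genes in each panel that passed the rhythm test and bars for the SE of the peak time. Crot stands highest in both panels with folds of 3.03 and 3.5, and in sh-Acsf3 the peaks of 6 of the 12 rhythmic genes lie from ZT12 to ZT18 and 0 from ZT18 to ZT24.

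Peaks were spread over the day. Of the 12 genes rhythmic in sh-Ctl 2 peaked from ZT0 to ZT6, 3 from ZT6 to ZT12, 3 from ZT12 to ZT18 and 4 from ZT18 to ZT24. Of the 12 in sh-Acsf3 the counts were 2, 4, 6 and 0. These are different sets of genes, so the counts do not show a shift. Over all 35 genes, rhythmic or not, 15 sh-Ctl peaks were fitted between ZT12 and ZT18 (42.9%, against 24% of all genes) and 12 between ZT18 and ZT24 (34.3%, against 24.1%). In sh-Acsf3 these were 16 (45.7%, against 24.2%) and 8 (22.9%, against 26.6%). Most such peaks belong to genes without a detected rhythm, where a peak time has little meaning. The genes also moved together between libraries, as given below, and the part of this in the counts was not tested. Of 30 regulators 15 were rhythmic in sh-Ctl (50%, against 19.4% of all genes) and 19 in sh-Acsf3 (63.3%, against 19.6%). In sh-Ctl the widest swings among the 4 with the smallest p were those of the clock output gene Dbp, with a peak at ZT10.7 and a fold of 43.4, and of Nr1d1, the gene of the clock repressor REV-ERBα, at ZT7.6 with a fold of 39.1. Nr1d2, its relative, peaked at ZT10.4 and Tef, a relative of Dbp, at ZT12.9. Ppara, with a peak at ZT11.7 and a fold of 1.61 in sh-Ctl, was again singled out after its values were seen.

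Within groups the genes tended to move together from library to library. Over the 64 libraries the correlation of deviations from the group means had a median of 0.257 over 595 pairs of the 35 genes, from -0.555 to 0.823, and 446 pairs (75%) were above 0. Over all pairs of the 10097 genes tested the median was 0.000455 and 50.1% were above 0. These correlations are descriptions, and the pairs share libraries, depth and cell makeup. The pairs of all genes were not matched to those of the 35 in count level. The closest pair was Slc25a20 with Acsl1 (0.823), followed by Slc25a20 with Eci2 (0.76) and Eci1 with Decr1 (0.755). Acsl5 went the other way, at -0.555 with Slc25a20, -0.533 with Eci2 and -0.525 with Cpt1a, and Oxct1 and Slc16a6 also had negative mean correlations with the rest (-0.1 and -0.134). In the 4 sh-Ctl libraries high in Saa1, 29 (ZT9), 23 (ZT12), 29 (ZT15) and 27 (ZT18) of the 35 genes were below the mean of the other 3 libraries of their group, with medians of -0.26, -0.06, -0.29 and -0.29 (log2), while 50.1% to 54.4% of all genes were. Similar dips occurred without raised Saa1, the lowest being a median of -0.41 with 29 genes lower in sh-Acsf3 ZT9 replicate 4 and -0.37 with 30 lower in sh-Ctl ZT6 replicate 1. Such shifts partly followed replicate number. The medians of sh-Acsf3 replicate 4 ran from -0.41 (ZT9) to -0.07 (ZT21), apart from 0.02 at ZT6. Those of sh-Acsf3 replicate 2 ran from 0.05 (ZT3) to 0.24 (ZT9). Those of sh-Ctl replicate 4 ran from 0.05 (ZT9) to 0.33 (ZT18), apart from -0.09 at ZT3. In sh-Ctl replicate 1 the medians ran from -0.37 (ZT6) to -0.05 (ZT15), apart from 0.09 at ZT3 and 0.004 at ZT21. In sh-Ctl replicate 2 they ran from -0.29 (ZT18) to 0.07 (ZT9), and in sh-Ctl replicate 3 from -0.06 (ZT21) to 0.23 (ZT15). Replicates 1 and 3 of sh-Acsf3 had medians on both sides of 0. The 4 libraries high in Saa1 belong to replicates 1 and 2 of sh-Ctl. The part of replicate number or depth in these shifts was not tested. Without the 4 libraries high in Saa1, 4 of 35 genes (against 14.1% of 10190 genes then tested) passed in the averaged comparison, Bdh1 and Oxct1 higher and Etfa and Acad11 lower. The median became -0.05 and 28 genes were below 0. The part of the acute-phase signal in these values was not tested.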

How the data were processed

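The deposited table holds raw UMI counts per gene for 64 liver libraries, without normalization. Per the submitters' processing notes, the authors used STAR and the GRCm38 (mm10) assembly. Versions, annotation release, UMI merging and strand use are not given in the sources used here. Treatment, time and replicate in each column name gave its sample. The 35 genes and the lists beside them were chosen with earlier results of these data known. Every gene described is named, with library values for those that passed a treatment test, those with the smallest rhythm or interaction p, Cpt1a and the Acaa1 copies. Of each list, up to 4 genes with the smallest p are named.

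The counts were modelled with edgeR 4.0.16 (R 4.3.3). The edgeR function filterByExpr, at a minimum count of 10 and a minimum total of 15, kept 10097 genes, and TMM scaled the libraries. A robust quasi-likelihood model with 16 group means (48 residual degrees of freedom) gave the averaged and single-time differences and a test of equal differences (7 degrees of freedom). For the rhythms, each treatment had its own mean, 24 h cosine and 24 h sine (58 residual degrees of freedom). Benjamini-Hochberg adjustment covered all genes tested, and 0.05 was the threshold. The alternatives tried were no filter, size factors by RLE, library size only, a mean CPM of at least 5, limma-voom (limma 3.58.1), DESeq2 1.42.0, a replicate block, a 12 h term, free time means and leaving out replicates or single libraries. Leaving out the 4 libraries with Saa1 above 1000 CPM, or the 8 with pancreas enzyme genes above 100 CPM, was chosen after seeing the data. Replicates of a group differed by more than counting error in all 96 pairs (lowest chi-square per degree of freedom 2.84). The code of the models was run on simulated counts with known changes, as a check of the code alone. The simulation gave every gene the same spread and had no shifts between replicates, so it does not bear on the calls given here. Positions come from GENCODE M21 and promoters from RefSeq (GRCm38.p6). Python 3.11.15 with matplotlib 3.10.9 made the figures.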

Additional observations from a re-analysis of the deposited data

Results flagged for a closer look

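In 7 of 224 groups of 4 libraries (14 genes over 16 groups) 1 library stood apart from the other 3 by more than Dixon's 95% limit. Chance alone gives this in about 5% of groups. Cpt2 was low in sh-Ctl ZT9 replicate 1, a library high in Saa1, at 73.2 CPM against 93.4 to 96.6, and high in sh-Acsf3 ZT15 replicate 4 at 110 CPM against 97.4 to 98.4. Hadhb was high in sh-Acsf3 ZT18 replicate 2, at 102 CPM against 67.7 to 72.5. Acaa2 was low in sh-Ctl ZT6 replicate 1, at 437 CPM against 663 to 708, in the same library in which Oxct1 was high, at 8.71 CPM against 4.14 to 4.86. Acaa1b was low in sh-Ctl ZT12 replicate 1, at 261 CPM against 361 to 372, and Acat1 was high in sh-Acsf3 ZT6 replicate 4, at 374 CPM against 277 to 293.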

How the results depend on the processing

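Counts below are of the 35 genes. The averaged comparison gave 2 calls in the settings tried other than library size only and a mean CPM of at least 5 (3 each, adding Hadha) and the removal of the 4 libraries high in Saa1 (4). Leaving out 1 replicate number gave 2 to 5, leaving out 1 library 2 to 3. Acsl5, Acad11 and Eci1 were added without replicate 2, and Hadha and Slc16a1 without replicate 4. Bdh1 and Oxct1 passed in every setting, with differences of 0.184 to 0.293 and 0.581 to 0.728 (log2). The 2 single-time calls became 1 with library size only, limma-voom or DESeq2 and 0 without the libraries high in Saa1 or without those with pancreas RNA, and lay between 0 and 1 without 1 replicate number and between 0 and 2 without 1 library. The 12 rhythmic genes of sh-Ctl became 6 with 8 free time means in place of a cosine, 8 to 11 without 1 replicate number and 11 to 16 without 1 library, and the 12 of sh-Acsf3 became 8 to 12 and 10 to 13. Single-time and rhythm calls over all genes in these settings are not set beside these counts. Whether such changes are particular to the 35 genes therefore cannot be read from them. The tests of different effects or rhythms gave 0 in each setting run. DESeq2 was planned and run for the averaged and single-time effects alone. Same-numbered libraries of the 2 treatments were not seen to pair. Their deviations correlated between -0.274 and 0.36 (median 0.0235, 32 pairs), and 8 of 32 correlated best with their own number. This check does not cover replicate numbers within a treatment. A replicate block shared by both treatments cannot absorb shifts that differ between them, and libraries of different times were modelled as independent. With a replicate block 2 averaged and 2 single-time calls remained in number, with 13 rhythmic genes in sh-Ctl and 12 in sh-Acsf3. Library size only shifted the median of all genes from -0.0085 to 0.0456 (log2). Over all genes 1461 of 10097 passed the averaged test. With library size only 1372 did, at a mean CPM of at least 5 971 of 7779, and without the libraries high in Saa1 1438 of 10190. Leaving out 1 replicate number gave from 787 of 10211 (replicate 3) to 1361 of 9845 (replicate 2). Levels under 10 CPM (Oxct1, Slc22a5, Slc16a6) rest on few UMIs per library, and small differences in them were not detectable at this depth.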
